A study of Glycine max with 48 samples.

Results

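The ovary of the soybean flower (Glycine max, cultivar Magellan) was compared between plants under combined water deficit and heat and plants under heat alone, to find what a shortage of water added at high temperature. The comparison rested on 6 of the 48 libraries of the study, the 3 combined-stress and the 3 heat libraries of the ovary, taken by their labels. Both groups met day temperatures of 38 °C and nights of 28 °C, and differed in water: combined-stress plants were given 30% of what was available for transpiration, heat plants 100%. The water-deficit (30% water) and control (100% water) ovaries are used beside them, also with 3 libraries each, from plants with days of 28 °C and nights of 24 °C. They also entered the fit that estimated the spread between libraries. All plants grew for 16 to 18 days to the first open flower before the treatments began. A library pools the ovaries of 10 to 15 flowers cut from 8 to 10 plants, so p-values measure the spread between such pools. The treatments were held in 4 growth chambers, and an effect of the chamber cannot be told apart from that of the treatment. The time between the start of treatment and collection is not stated in the labels.

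The ovary holds the ovules and becomes the pod after fertilisation, so seed set depends on it. Plants short of water close their stomata and lose evaporative cooling, and heat raises the demand for water, so each stress bears on the other. Heat-shock proteins that refold or protect other proteins, abscisic acid signalling, and enzymes of sugar metabolism are well known parts of such responses in plants in general. None of these can be assigned to genes here, because the files give identifiers without names and 0 of 57147 identifiers matched the reference gene table (assembly Glycine_max_v4.0). Genes are therefore given by identifier, with no role, and the 29 gene lists drawn up for this tissue (among them heat-shock, abscisic acid and sugar transport genes) could not be built.

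Expression was deposited as FPKM, a read density corrected for gene length and library size. The 6 libraries summed to between 589041 and 611943 FPKM and held 30513 to 31222 genes at 1 FPKM or more. Read totals are unknown, and the steps of low FPKM values put the deepest of the 6 libraries, combined stress replicate 1, at 1.46 times the depth of the shallowest. Correlations of log2(FPKM + 1) over tested genes were 0.940 to 0.957 among combined libraries, 0.941 to 0.956 among heat libraries and 0.932 to 0.944 between the groups. No library of the 6 stood apart. Of 19861 genes with a mean of at least 5 FPKM over the ovary libraries, 249 were listed at 0 in at least 1 library, and 4 of the called genes below have such a value. In control flowers 70 genes were at least 8-fold higher in the ovary than in every other organ, with at least 5 FPKM. These held 0.163% ± 0.0124 of summed FPKM in combined-stress ovaries and 0.164% ± 0.00561 in heat ovaries (SD, n = 3 each). With no gene names the organ could not be checked against markers known from outside these data.

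Few ovary genes were called different when water deficit was added to high temperature. Of 33336 genes tested, 74 were higher and 189 lower in combined-stress than in heat ovaries, with limma on log2(FPKM + 1) at a Benjamini-Hochberg adjusted p under 0.05. That is 263 genes or 0.789% of those tested, 0.222% higher and 0.567% lower. At an unadjusted p under 0.05 there were 4583, so a gene without a call may still have differed. The median log2 fold change over all tested genes was -0.01, with quartiles of -0.16 and 0.13. The spread behind these p-values came from all 12 ovary libraries, and the count fell when any 1 of the 6 compared was left out. It was 156 without combined replicate 1, 67 without combined replicate 2 and 165 without combined replicate 3. It was 156 without heat replicate 1, 59 without heat replicate 2 and 67 without heat replicate 3. In a fit of the 6 libraries alone it was 68.

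The called changes were mostly moderate in size. Among the 74 higher genes the median log2 fold change was 0.83 and the range 0.37 to 3.60, with 26 genes at 1 or more and 9 at 2 or more. Among the 189 lower genes the median was -0.75 and the range -3.46 to -0.34, with 44 genes at -1 or below and 6 at -2 or below. A change of this size was not enough by itself: 726 tested genes had a log2 fold change of at least 1 in either direction and 70 of them were called. In every called gene the 3 combined libraries lay all above or all below the 3 heat libraries, which held for 7.72% (above) and 10.6% (below) of all tested genes.

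The higher genes took up 0.425% to 0.523% of summed FPKM in the combined-stress libraries, against 0.223% to 0.232% in the heat libraries. The lower genes took up 1.08% to 1.16% in combined-stress libraries, against 2.00% to 2.21% in heat libraries. A large part of this came from 1 gene, GLYMA_08G200000, which averaged 3013 FPKM in combined-stress and 6061 FPKM in heat ovaries. Both lists were chosen on these same values, so the shares only describe them. Calls were more frequent among abundant genes, at 0.33% of the 12738 genes under 5 FPKM in the higher of both groups, 0.702% of 14530 genes at 5 to 20 FPKM, 1.95% of 5176 genes at 20 to 100 FPKM and 2.02% of 892 genes at 100 FPKM or more. The plot of change against level shows this and also the many large changes that did not pass.

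**Figure D1:**
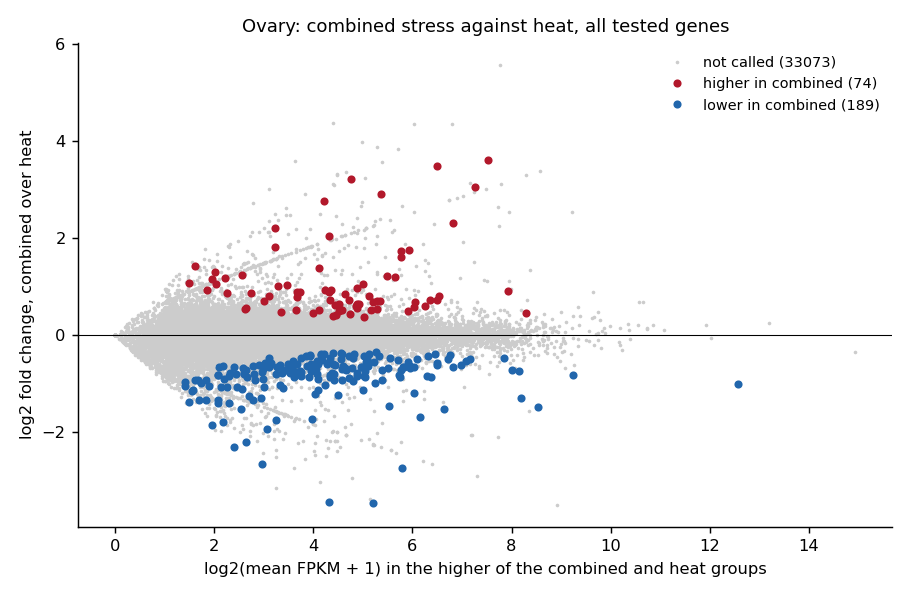
Each point is 1 of the 33336 genes tested in the ovary, with its mean level in the higher of the combined-stress and heat groups on the x axis, as log2(mean FPKM + 1), and its log2 change, combined stress over heat, on the y axis. The 74 genes called higher (red) and the 189 called lower (blue) lie above and below 0, and the far right blue point is GLYMA_08G200000.

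The largest rise among the called genes belonged to GLYMA_14G063700. It stood at 135, 183 and 228 FPKM in the combined-stress libraries and at 21.3, 10.6 and 11.5 FPKM in the heat libraries. It was listed at 0 in all 3 water-deficit libraries and in 2 of 3 control libraries, with 0.0938 FPKM in the other. It was thus measured almost only at high temperature, and was higher there when water was short (log2 fold change of combined over heat 3.60, SE 0.23, adjusted p = 2.73e-05).

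GLYMA_04G229800, the second largest rise, had the same profile. It was at 59.9, 96.6 and 112 FPKM in combined-stress ovaries, at 9.01, 7.30 and 4.81 FPKM in heat ovaries, and listed at 0 in all 6 ovary libraries without heat. Its log2 fold change of combined over heat was 3.48 (SE 0.22, adjusted p = 2.73e-05). In both genes every combined library lay above every heat library. The SE of each also draws on the water-deficit and control libraries, whose values at or near 0 had little or no spread.

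The identifier next to the first of these, GLYMA_14G063800, was called as well and is described here after its values were seen. It had 122, 167 and 168 FPKM in combined-stress ovaries, against 17.6, 19.5 and 15.2 FPKM in heat ovaries. Unlike the other 2 it was detected in every ovary library without heat, at 0.631, 1.04 and 1.64 FPKM in water-deficit ovaries and at 0.663, 0.904 and 0.763 FPKM in control ovaries. Its log2 fold change of combined over heat was 3.05 (SE 0.17, adjusted p = 2.21e-05). The next identifier, GLYMA_14G063900, moved the other way and by little, with 15.8, 15.5 and 14.8 FPKM in combined-stress ovaries and 20.1, 20.5 and 19.7 FPKM in heat ovaries (log2 fold change -0.37, SE 0.07, adjusted p = 0.0465). That small change lost its call when any 1 of the 6 libraries was left out (adjusted p up to 0.187 over the alternatives). Over all 259 called genes whose identifier holds a chromosome number, 8 pairs lay within 300 units of identifier number (neighbouring genes usually differ by 100). Of these pairs 6 changed in the same direction. Most called genes were lower (189 of 263), which alone favours pairs in the same direction. With no such count over all tested genes beside them, the pairs are not read as clustering of neighbours. If neighbouring genes are near-identical copies, reads can be split between them, and this was not tested.

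The largest falls among the called genes were those of GLYMA_15G119200 and GLYMA_15G119500, a pair 300 apart in identifier number. The first stood at 1.80, 1.91 and 3.41 FPKM in combined-stress ovaries and at 27.3, 40.9 and 39.5 FPKM in heat ovaries. It was at 17.9, 12.2 and 9.22 FPKM in water-deficit ovaries and at 172, 69.0 and 178 FPKM in control ovaries. The level was lower with water deficit at both temperatures, and the 4 groups did not overlap. The log2 fold change was -3.46 for combined over heat (SE 0.38, adjusted p = 0.00539), -3.25 for water deficit over control (SE 0.38, adjusted p = 0.0207) and -1.83 for heat over control (SE 0.38, adjusted p = 0.0104). The first and the last of these share the heat libraries.

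GLYMA_15G119500 had 0.909, 0.883 and 0.581 FPKM in combined-stress ovaries and 14.0, 25.6 and 17.5 FPKM in heat ovaries. Its levels were 8.74, 3.37 and 1.95 FPKM in water-deficit ovaries and 82.9, 28.5 and 84.1 FPKM in control ovaries. It fell by 3.45 on the log2 scale in combined over heat (SE 0.50, adjusted p = 0.0235). It stayed past the threshold without heat replicate 1 but not without any other single library of the 6 (adjusted p up to 0.103). GLYMA_16G061400, named because it had the largest fall under water deficit alone, showed the same order of groups. It was listed at 0 in 1 combined library and at 0.531 and 0.225 FPKM in the others, against 6.11, 8.47 and 5.93 FPKM in heat ovaries (log2 fold change -2.65, SE 0.47, adjusted p = 0.0369). In water-deficit ovaries it stood at 2.71, 0.464 and 1.03 FPKM, against 44.2, 14.5 and 54.9 FPKM in control ovaries (log2 fold change -3.93, SE 0.47, adjusted p = 0.0207). Its call over heat was lost without any 1 of the 6 libraries (adjusted p up to 0.199). In these 3 genes control replicate 2 was the lowest of the control libraries.

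**Figure D2:**
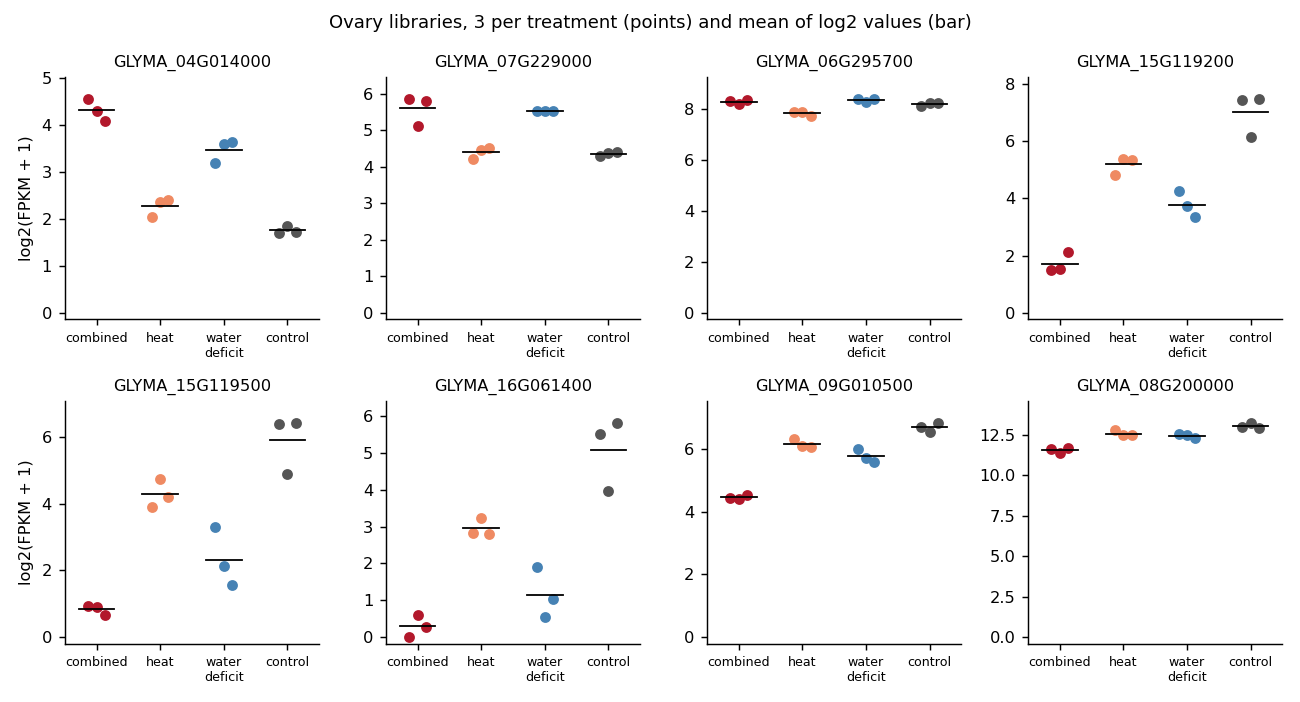
Levels of 8 called genes in the 12 ovary libraries, as log2(FPKM + 1) on the y axis, with the 4 treatments along the x axis, 1 point per library and a bar at the mean of the log2 values. In the first 3 panels the combined-stress libraries lie above the heat libraries, and in the other 5 they lie below them.

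The most abundant called gene was also among the lower ones, and was chosen for its level. GLYMA_08G200000 had 3123, 2659 and 3257 FPKM in combined-stress ovaries and 6925, 5603 and 5655 FPKM in heat ovaries (log2 fold change -1.01, SE 0.12, adjusted p = 0.00342). Water-deficit ovaries had 5955, 5590 and 4965 FPKM and control ovaries 7855, 9512 and 7677 FPKM. Its level at each single stress lay between those of the combined stress and the control.

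GLYMA_09G010500, with the lowest adjusted p among the lower genes, had very even combined-stress libraries. They stood at 20.7, 20.3 and 22.1 FPKM, against 78.8, 67.03 and 65.4 FPKM in heat ovaries (log2 fold change -1.69, SE 0.12, adjusted p = 6.27e-05). Water-deficit ovaries had 63.1, 50.7 and 46.5 FPKM and control ovaries 102, 91.7 and 112 FPKM. Without heat it also fell with water deficit (log2 fold change -0.93, SE 0.12, adjusted p = 0.019). The most abundant higher gene, GLYMA_06G295700, changed by much less: it had 317, 289 and 326 FPKM in combined-stress ovaries and 234, 238 and 213 FPKM in heat ovaries (log2 fold change 0.44, SE 0.08, adjusted p = 0.0335). It was at 340, 306 and 337 FPKM in water-deficit ovaries and at 275, 304 and 301 FPKM in control ovaries, so its combined-stress level lay within the range of the groups without heat. The call was lost without any 1 of the 6 libraries (adjusted p up to 0.145).

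Among the 1250 identifiers that begin with ENSRNA (annotated apart from the 55897 GLYMA genes), 372 were tested and 2 were called (0.538%, against 0.789% of all tested genes), both higher and both named after their values were seen. ENSRNA050003632 had 24.8, 32.1 and 21.6 FPKM in combined-stress ovaries and 3.46, 4.53 and 7.69e-08 FPKM in heat ovaries (log2 fold change 3.21, SE 0.55, adjusted p = 0.0397). Water-deficit ovaries had 18.5, 17.8 and 27.4 FPKM and control ovaries 24.1, 19.0 and 19.2 FPKM. ENSRNA050003553 had 28.1, 64.8 and 28.2 FPKM in combined-stress ovaries and 3.43, 3.95 and 5.06 FPKM in heat ovaries (log2 fold change 2.90, SE 0.49, adjusted p = 0.0354). In both the heat group was the one that stood low. Each call was lost in 8 of 16 alternative fits, without any 1 library for ENSRNA050003553 and without any but heat replicate 3 for ENSRNA050003632 (adjusted p up to 0.134 for ENSRNA050003553 and 0.235 for ENSRNA050003632).

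The combined stress was usually the extreme of the 4 ovary treatments for the called genes. Its mean was the highest of the 4 in 70 of the 74 higher genes and the lowest of the 4 in 175 of the 189 lower genes. The call itself favours this, since it sets combined stress above or below heat. Among the 15888 tested genes whose combined mean lay above the heat mean, called or not, combined stress was the highest of the 4 in 61%, and among the 17297 with a lower combined mean it was the lowest in 64%. Heat stood at the other end in a minority of the called genes, with the lowest mean of the 4 in 24 of the 74 higher genes and the highest in 75 of the 189 lower genes, against 43.4% and 40% of all tested genes that differed in the same direction.

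Whether water deficit did the same without heat was asked in the water-deficit and control ovaries. Their fold changes share no library with the comparison above. The calls are not independent, because both comparisons use the same estimate of spread from all 12 ovary libraries. For water deficit over control limma called 23 genes higher (0.069% of 33336) and 55 lower (0.165%). Of the 74 genes higher at high temperature, 59 had a positive log2 fold change of water deficit over control (79.7%, median 0.16), against 48.8% of all tested genes. Of the 189 lower genes, 159 had a negative one (84.1%, median -0.26), against 50.7% of all tested genes. Most called genes thus had the same sign at both temperatures. Their medians are not compared between temperatures, because the genes were chosen at the higher one. With 1 library of the 6 left out, and the genes called again, the percentages were 61.9 (without combined replicate 2) to 78.05 for higher genes and 75.7 (without heat replicate 1) to 95.7 for lower genes.

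Taken from the other side, of the 55 genes lower under water deficit alone, 53 had a negative log2 fold change of combined over heat (median -0.84, against -1.42 for water deficit over control, which chose them) and 19 were called lower. Of the 23 genes higher under water deficit alone, 17 had a positive value (median 0.21, against 0.93 in the comparison that chose them) and 4 were called higher. Over all tested genes, combined over heat was negative in 52.1% and positive in 47.5%, with 0.567% called lower and 0.222% called higher. No gene was called in opposite directions at the 2 temperatures. The overlap is 4 of 74 and 4 of 23 for higher genes, and 19 of 189 and 19 of 55 for lower genes.

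**Figure D3:**
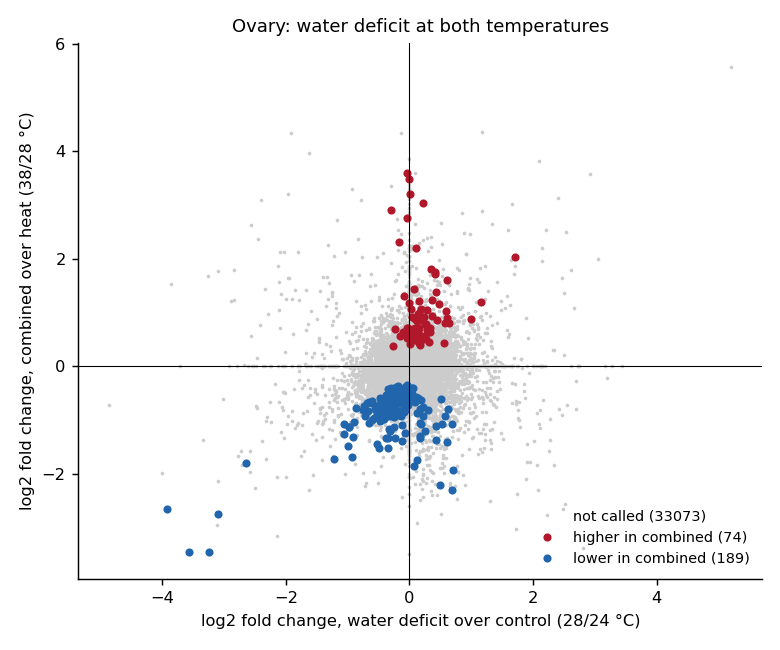
Each point is 1 of the 33336 genes tested in the ovary, with the response to water deficit at 28/24 °C (log2 of water deficit over control) on the x axis and at 38/28 °C (log2 of combined over heat) on the y axis. Of the red points (74 genes higher at high temperature) 59 lie right of 0, of the blue points (189 lower genes) 159 lie left of 0, and the axes share no library.

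The 4 genes called higher with water deficit at both temperatures were GLYMA_04G014000, GLYMA_07G229000, GLYMA_06G021200 and GLYMA_05G029200. GLYMA_04G014000 had 22.5, 18.6 and 15.9 FPKM in combined-stress ovaries, against 3.12, 4.12 and 4.28 FPKM in heat ovaries (log2 fold change 2.04, SE 0.16, adjusted p = 0.000104). It had 8.13, 10.99 and 11.5 FPKM in water-deficit ovaries, against 2.24, 2.61 and 2.32 FPKM in control ovaries (log2 fold change 1.71, SE 0.16, adjusted p = 0.00415). This was the largest rise under water deficit alone among the genes called there.

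GLYMA_07G229000 followed the water supply at both temperatures. It stood at 57.6, 33.7 and 55.3 FPKM in combined-stress ovaries and at 17.7, 21.3 and 21.9 FPKM in heat ovaries. The levels were 45.5, 44.9 and 45.6 FPKM in water-deficit ovaries and 18.8, 20.0 and 20.1 FPKM in control ovaries. Its log2 fold changes were 1.195 for combined over heat and 1.17 for water deficit over control (SE 0.16 each, adjusted p = 0.00872 and 0.0214), and 0.04 for heat over control (adjusted p = 0.901). The call over heat was lost in 1 of 16 alternative fits (adjusted p up to 0.106). GLYMA_06G021200 had 12.9, 12.6 and 11.2 FPKM in combined-stress ovaries, against 7.20, 5.64 and 5.796 FPKM in heat ovaries (log2 fold change 0.88, SE 0.16, adjusted p = 0.0278). It had 7.88, 6.45 and 5.11 FPKM in water-deficit ovaries, against 2.84, 3.21 and 2.101 FPKM in control ovaries. Its call over heat held without heat replicate 1 or combined replicate 3 but not without any other of the 6 libraries (adjusted p up to 0.127). GLYMA_05G029200 rose least of the 4, with 24.7, 27.5 and 24.6 FPKM in combined-stress and 19.6, 18.6 and 17.8 FPKM in heat ovaries (log2 fold change 0.43, SE 0.08, adjusted p = 0.0368), and lost the call without any 1 of them (adjusted p up to 0.161).

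GLYMA_14G221500, the second largest rise under water deficit alone among the genes called there, did not pass at high temperature. Water-deficit ovaries had 31.4, 18.6 and 19.7 FPKM, against 8.81, 6.22 and 5.58 FPKM in control ovaries (log2 fold change 1.61, SE 0.26, adjusted p = 0.04). At high temperature the levels overlapped, with 18.6, 11.6 and 14.4 FPKM in combined-stress ovaries and 6.32, 9.99 and 12.3 FPKM in heat ovaries (log2 fold change 0.61, adjusted p = 0.338). The difference between both responses was -0.996 on the log2 scale (SE 0.37, adjusted p = 0.636).

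The interaction term tests directly whether the response to water deficit differed between the temperatures, as the log2 fold change of combined over heat minus that of water deficit over control. It passed in 5 of 33336 genes (0.015%), against 2309 at an unadjusted p under 0.05. Leaving out 1 library gave 4 to 19 genes, namely 10, 19, 10 and 8 when replicate 1 of the combined, heat, water-deficit or control libraries was dropped. GLYMA_14G063700 (3.64, SE 0.32, adjusted p = 0.0013), GLYMA_04G229800 (3.48, SE 0.31, adjusted p = 0.0013) and GLYMA_14G063800 (2.83, SE 0.25, adjusted p = 0.0013) had positive terms. These are the 3 genes described above that were high at high temperature only. GLYMA_04G229800 was listed at 0 in every ovary library without heat, so its term is the same number as its log2 fold change of combined over heat. GLYMA_14G063700 was at or near 0 there. For both, a response to water deficit without heat could not be measured, so their terms do not show a difference between 2 measured responses.

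The other 2 had negative terms and unlike profiles. GLYMA_05G202700 was at 0.492, 0.314 and 0.221 FPKM in combined-stress ovaries, against 4.36, 5.21 and 6.20 FPKM in heat ovaries. It was at 3.12, 4.10 and 4.02 FPKM in water-deficit ovaries, against 3.93, 1.19 and 2.54 FPKM in control ovaries, so only the combined stress stood low (interaction -2.70, SE 0.35, adjusted p = 0.0313). This interaction call was lost in 11 of 21 alternative fits (adjusted p up to 0.122), among them those without replicate 2 or 3 of the combined, heat or water-deficit libraries or replicate 3 of the controls. GLYMA_14G096600 had 9.11, 8.29 and 8.08 FPKM in combined-stress ovaries, 10.8, 10.9 and 13.9 in heat ovaries, 10.7, 9.32 and 9.70 in water-deficit ovaries and 4.37, 3.77 and 3.37 in control ovaries. Each single stress raised it above control (log2 fold change 1.18 for water deficit, adjusted p = 0.00593, and 1.41 for heat, adjusted p = 6.96e-05). Combined over heat was -0.44 (adjusted p = 0.12), which gave the interaction of -1.61 (SE 0.17, adjusted p = 0.00416).

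**Figure D4:**
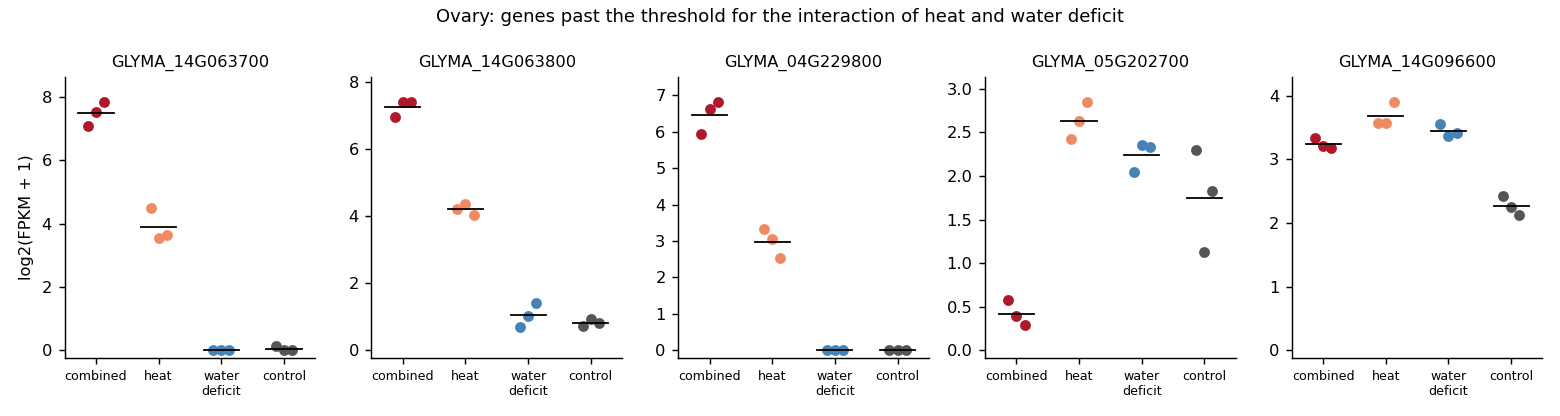
Levels of the 5 genes with an interaction past the threshold in the 12 ovary libraries, as log2(FPKM + 1) on the y axis, by treatment on the x axis, with 1 point per library and a bar at the mean of the log2 values. The first 3 genes are highest under combined stress and lowest without heat, GLYMA_05G202700 is lowest under combined stress, and GLYMA_14G096600 is lowest in the control.

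The same contrast was fitted in the other organs of the flower, which share no library with the ovary. Their libraries may still come from the same plants, and an effect of the chamber could recur in every organ. Agreement between organs is therefore not an independent replication of the ovary's result. The stigma, the pollen-receiving tip of the same pistil, had 146 genes higher (0.434% of 33609) and 234 lower (0.696%). The sepal had 272 higher (0.82% of 33179) and 839 lower (2.53%), and the anther 7200 higher (25.2% of 28529) and 2438 lower (8.55%). The anther counts depend on scaling: its median log2 fold change over all tested genes was 0.36, and rescaling by median of ratios turned the split to 691 higher and 3191 lower.

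Genes called in the ovary mostly had the same sign in the stigma and sepal. Of the 74 higher genes, 67 of 73 tested had a positive log2 fold change in the stigma and 62 of 71 in the sepal, against 44.7% and 44.4% of all genes tested in both organs. Of the 189 lower genes, 173 of 183 had a negative one in the stigma and 158 of 181 in the sepal, against 55.0% and 55.3%. In the stigma 16 of the higher and 62 of the lower genes were themselves called, and in the sepal 17 and 68. Over all genes tested in both organs, the stigma called 0.453% higher and 0.733% lower, and the sepal 0.729% and 2.49%.

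In the anther the higher genes were positive in 59 of 66, against 77.6% of all genes, and the lower genes negative in 65 of 155, against 22.2%. Set against the anther's own median over these genes (0.38), 50 of the 66 higher genes lay above it and 107 of the 155 lower genes lay below it. The anther calls held 35 of the higher (53%) and 19 of the lower ovary genes (12.3%) in the same direction. Another 15 of the lower ovary genes (9.68%) were called higher there. Over all genes tested in both organs, the anther called 26.2% higher and 6.44% lower. The plot of medians shows the red and blue groups on either side of the grey one in all 4 organs.

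**Figure D5:**
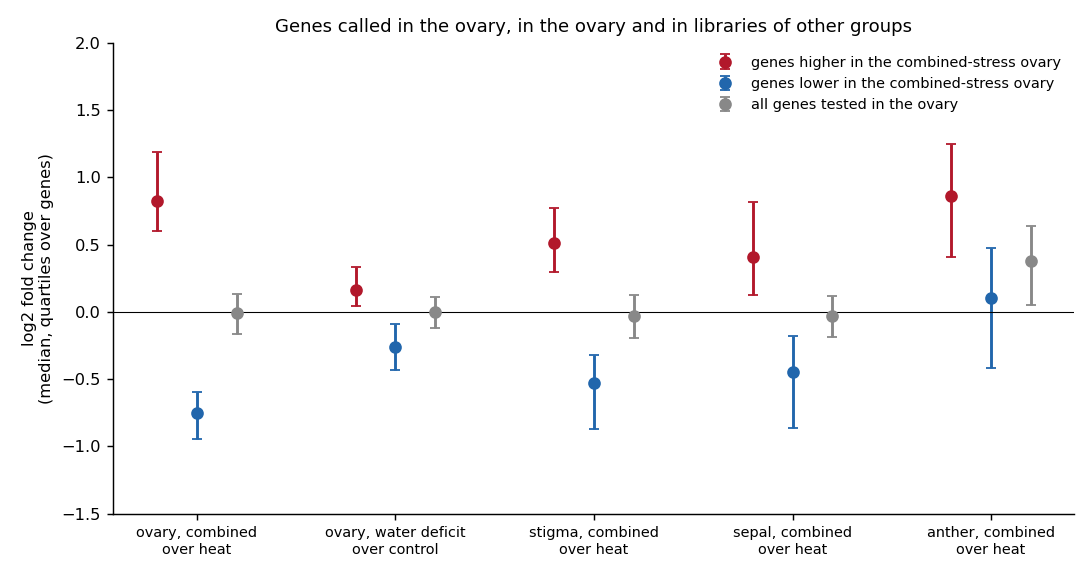
Median log2 fold change (points) and quartiles (bars) over the 74 genes called higher in the combined-stress ovary, the 189 called lower and all genes tested in the ovary, in 5 comparisons along the x axis. The first comparison is the one that chose the genes, and the other 4 use other libraries. The medians of the higher genes are 0.83, 0.16, 0.51, 0.41 and 0.86, and those of the lower genes -0.75, -0.26, -0.53, -0.45 and 0.10.

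Taking the stigma's list instead, 232 of its 233 lower genes that were tested in the ovary had a negative value in the ovary (median -0.53) and 62 were called there, and 121 of its 144 higher genes had a positive one (median 0.31), with 16 called. For the sepal it was 643 of 744 lower genes (median -0.27, 68 called) and 172 of 218 higher genes (median 0.22, 17 called). Over all genes tested in the ovary, 52.1% were negative and 47.5% positive, with 0.567% called lower and 0.222% called higher. The shared calls are thus 62 of 189 ovary genes and 62 of 233 stigma genes for falls.

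No other organ had a call in the same direction for 30 of the 74 higher and 77 of the 189 lower ovary genes. Exactly 1 other organ did for 25 and 79, 2 did for 14 and 29, and all 3 did for 5 and 4. The anther held 35 of the higher and 19 of the lower genes in the same direction. It called 26.2% of all genes tested in both organs higher and 6.44% lower, and its split turned with rescaling. These counts are therefore not read as sharing beyond that background. An absent call in another organ is no evidence of a difference between organs, which was tested separately below.

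The 5 genes higher in all 4 organs were GLYMA_14G063700, GLYMA_14G063800, GLYMA_20G213900, GLYMA_12G182500 and GLYMA_06G021200, out of 24778 genes tested in every organ. For GLYMA_14G063700 the log2 fold change of combined over heat was 3.60 in the ovary, 3.52 in the stigma, 2.41 in the anther and 2.38 in the sepal. GLYMA_20G213900 had 79.9, 100.6 and 157 FPKM in combined-stress ovaries and 25.2, 19.7 and 18.6 FPKM in heat ovaries, with all 3 libraries of the first group above the second. It was at or below 2.62 FPKM in each of the 6 ovary libraries without heat, and its log2 fold change of combined over heat was 2.31 in the ovary (SE 0.32, adjusted p = 0.0143), 2.52 in the stigma, 2.11 in sepals and 1.75 in anthers. The ovary call was lost without combined replicate 2, heat replicate 2 or heat replicate 3 (adjusted p up to 0.0685). GLYMA_12G182500 was much lower in level, at 4.79, 12.8 and 7.49 FPKM in combined-stress ovaries and 0.232, 1.89 and 0.928 FPKM in heat ovaries (log2 fold change 2.21, SE 0.34, adjusted p = 0.0154). Its call was lost without combined replicate 2 or heat replicate 3 (adjusted p up to 0.135).

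The 4 genes lower in all 4 organs were GLYMA_04G179500, GLYMA_06G185300, GLYMA_16G153600 and GLYMA_05G202700. GLYMA_04G179500 had 109, 167 and 123 FPKM in combined-stress ovaries, against 374, 352 and 380 FPKM in heat ovaries (log2 fold change -1.48, SE 0.15, adjusted p = 0.00187). It had 174, 242 and 216 FPKM in water-deficit ovaries, against 434, 453 and 373 FPKM in control ovaries, so the fall with water deficit was seen at both temperatures. In the stigma it averaged 66.7 ± 5.63 FPKM under combined stress and 276 ± 34.9 under heat (SD, n = 3 each). GLYMA_06G185300 stood at 395, 366 and 275 FPKM in combined-stress ovaries and 550, 597 and 667 FPKM in heat ovaries (log2 fold change -0.82, SE 0.12, adjusted p = 0.0147). GLYMA_16G153600 had 1.57, 0.945 and 0.665 FPKM in combined-stress ovaries and 3.32, 9.77 and 8.89 FPKM in heat ovaries (log2 fold change -1.93, SE 0.33, adjusted p = 0.0276). The call of GLYMA_06G185300 was lost without heat replicate 2 or 3 (adjusted p up to 0.116), and that of GLYMA_16G153600 without replicate 2 or 3 of either group (adjusted p up to 0.133).

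The difference between organs was tested gene by gene in a joint fit of 24 libraries. This fit treated the libraries of both organs as unrelated, so a link between same-numbered libraries of a treatment was not modelled. A count of 0 therefore does not show equal responses. Between ovary and stigma limma called 0 of 31778 genes (0%), with 2032 at an unadjusted p under 0.05, 3 called with a pseudocount of 0.1 and 2 with the replicate number as a block. Between ovary and sepal it called 44 of 29917 (0.147%), with 29 more positive in the ovary and 15 more negative, and 2528 at an unadjusted p under 0.05. Without combined replicate 2 of the ovary it called 27. The genes with the largest differences fell into 2 kinds.

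GLYMA_14G002600 and GLYMA_08G355900 had the largest positive differences, and both passed in the sepal and not in the ovary. GLYMA_14G002600 had 47.8, 36.1 and 52.2 FPKM in combined-stress ovaries and 42.3, 63.7 and 62.1 FPKM in heat ovaries (log2 fold change -0.29, adjusted p = 0.635). In the sepal it averaged 6.34 ± 1.101 FPKM under combined stress and 48.9 ± 9.90 under heat, and the ovary minus sepal difference was 2.46 (adjusted p = 0.0171). GLYMA_08G355900 averaged 7.66 ± 4.98 FPKM in combined-stress sepals and 44.9 ± 15.0 in heat sepals. In the ovary it averaged 1.49 ± 0.327 FPKM under combined stress and 1.87 ± 0.782 under heat (SD, n = 3 each), and the difference was 2.33 (adjusted p = 0.0171). Both differences lost the call in 5 alternative fits, without combined replicate 1 or 3 of the sepal among them.

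GLYMA_15G119200 and GLYMA_09G084900 had the largest negative differences, and passed in the ovary and not in the sepal. GLYMA_15G119200 averaged 5.92 ± 2.57 FPKM in combined-stress sepals and 6.17 ± 0.833 in heat sepals, so that the ovary minus sepal difference was -3.35 (adjusted p = 0.00686). GLYMA_09G084900 had 5.86, 6.45 and 9.63 FPKM in combined-stress ovaries, against 48.4, 61.5 and 52.3 FPKM in heat ovaries (log2 fold change -2.75, SE 0.37, adjusted p = 0.0149, and up to 0.0749 without combined replicate 2, heat replicate 2 or heat replicate 3). In the sepal it averaged 16.0 ± 2.85 FPKM under combined stress and 10.5 ± 1.95 under heat, a log2 fold change of 0.56 (adjusted p = 0.134), and the difference was -3.31 (adjusted p = 0.00207). In the stigma both fell as in the ovary, with log2 fold changes of -2.79 for GLYMA_15G119200 and -2.29 for GLYMA_09G084900 (adjusted p = 0.0127 and 0.00816).

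Genes characteristic of an organ were taken from control flowers alone, by the same 8-fold rule with at least 5 FPKM. Of 278 genes enriched in the pistil (in ovary and stigma against sepal and anther), all were tested in the ovary, 0 were higher and 11 lower (3.96%, against 0.567% of all tested genes), with a median log2 fold change of -0.09. All 278 had at least 5 FPKM in control ovaries, and calls were more frequent among abundant genes, so these shares are not matched for level. The 11 became 5 without heat replicate 3 and 6 without replicate 2 of either group. Their share of summed FPKM was 3.12% ± 0.156 in combined-stress ovaries and 3.07% ± 0.124 in heat ovaries (SD, n = 3 each, two-sided exact permutation p = 0.5, where 0.1 is the smallest that 3 against 3 can give). GLYMA_15G119200 and GLYMA_04G179500 are among the 11. Of the 70 ovary-enriched genes, all tested, 0 were called in limma's fit and the median was 0.00.

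A dissected ovary could carry tissue of neighbouring organs, so their enriched genes were counted in the same way. Of 1697 anther-enriched genes 775 were tested, with 0 higher and 1 lower (0.129%) and a median of -0.30, and their share was 0.339% ± 0.0204 in combined-stress and 0.415% ± 0.131 in heat ovaries (exact permutation p = 0.5). Heat replicate 2 had the highest share, 0.549%. Of 740 sepal-enriched genes 365 were tested, with 2 higher (0.548%, against 0.222% of all tested genes), among them GLYMA_04G014000, and 5 lower (1.37%, against 0.567%), among them GLYMA_05G202700. The median over the 365 was -0.07, and the whole list held 0.316% ± 0.0278 of summed FPKM in combined-stress ovaries, against 0.331% ± 0.0264 in heat ovaries (exact permutation p = 0.6). The 2 higher genes became 4 without combined replicate 1, and the 5 lower ones 1 without heat replicate 3 and 3 without replicate 2 of either group. None of the 41 tested stigma-enriched genes was called. By the organ with the highest control level, 32.4% of the higher and 34.9% of the lower called genes were highest in the ovary, against 44.6% of all tested genes, 41.9% and 33.9% were highest in the sepal, against 29.1%, and 13.5% and 22.2% in the stigma, against 12.4%. In such bulk samples fewer cells of a type and less RNA per cell cannot be told apart.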

How the data were processed

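Per the labels' protocols, RNA of dissected flower organs was sequenced as pairs of 150-base reads. Per the submitters' processing notes the authors used HISAT2 2.2.1. For the counting tool, build and annotation the sources used here give no name. The authors deposited FPKM values per gene, in a file for each organ, and no counts were analysed here, so no count test was run and no interval of counting error can be given.

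The 12 ovary libraries (4 treatments, 3 libraries each) were fitted with limma 3.58.1 in R 4.3.3 (with data.table, version 1.17.8) (trend and robust options) after adding 1 FPKM and taking log2, and other organs likewise. Log2 fold changes are differences of group means on that scale, which understates changes of low genes, and SE is their standard error. Genes entered the test with a mean of 1 FPKM or more in any of the 4 groups. Two-sided Benjamini-Hochberg adjusted p-values under 0.05 over all tested genes were called. Differences between organs used 24 libraries from separately normalised files. The code was tested on simulated data.

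The comparison and lists were chosen with earlier results of these data known. By the naming rule, with no annotation, the 2 largest rises and 2 largest falls among the called genes of each comparison are named. For the interaction all called genes are named. GLYMA_08G200000, GLYMA_06G295700, GLYMA_09G010500, neighbours, ENSRNA genes and genes shared between organs or temperatures were chosen after their values were seen. The alternatives are other pseudocounts, filters, scalings, moderation, thresholds, a replicate block and leaving out libraries. Plots were made in Python 3.11.15 with matplotlib 3.10.9.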

Additional observations from a re-analysis of the deposited data

Results flagged for a closer look

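In 5 genes the interaction term of heat and water deficit in the ovary passed the threshold in limma. The terms, as log2 differences, were 3.64 for GLYMA_14G063700, 3.48 for GLYMA_04G229800, 2.83 for GLYMA_14G063800, -1.61 for GLYMA_14G096600 and -2.70 for GLYMA_05G202700. The first 4 passed in all 21 alternative fits, and GLYMA_05G202700 failed in 11 of them. GLYMA_14G063700 and GLYMA_04G229800 were at or near 0 FPKM without heat, so a response to water deficit could not be measured there. In 44 genes the response to combined stress over heat differed between ovary and sepal. Of the genes named, the log2 difference, ovary minus sepal, was 2.46 for GLYMA_14G002600, 2.33 for GLYMA_08G355900, -3.35 for GLYMA_15G119200 and -3.31 for GLYMA_09G084900.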

How the results depend on the processing

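The count of called ovary genes, 263 in the report, was 68 with the 6 libraries of both groups alone (52 shared with the 263), 149 without trend and robust moderation, 642 at an adjusted p threshold of 0.1, and 59 to 165 when 1 of the 6 libraries was left out, lowest without heat replicate 2. It was 293 and 230 with pseudocounts of 0.1 and 5, 182 with no filter, 308 with a filter at 5 FPKM, and 254 (89 higher, 165 lower) and 296 with median-of-ratios and upper-quartile rescaling. No gene called both there and in the report had opposite directions. GLYMA_14G063700, GLYMA_04G229800, GLYMA_14G063800, GLYMA_15G119200, GLYMA_04G014000, GLYMA_09G010500, GLYMA_08G200000, GLYMA_04G179500 and GLYMA_05G202700 passed in all 16 alternatives, while GLYMA_15G119500 failed in 7, GLYMA_16G061400 in 8, GLYMA_06G295700 and GLYMA_05G029200 in 9 and GLYMA_14G063900 in 11. GLYMA_08G355900, not called in the ovary, had a log2 fold change of 0.0374 without heat replicate 1 and -0.31 without heat replicate 3, in place of -0.18.
The 5 interaction genes became 10 with a pseudocount of 5, 8 at a threshold of 0.1 and 4 to 19 with a library left out, most without heat replicate 1; a fit of the 6 libraries cannot hold an interaction. The ovary minus stigma count of 0 became 3 with a pseudocount of 0.1 and 0 to 1 with a library left out. The ovary minus sepal count of 44 lay at 27 to 49 with a library left out. Leaving out a library gave 86 to 168 called genes in the stigma, 511 to 698 in the sepal and 4551 to 10159 in the anther, where median-of-ratios rescaling gave 3882.
Deviations from the group mean correlated at -0.115 to 0.029 for same-numbered combined and heat libraries, and at -0.054 to 0.123 for the other pairs. Deviations in a group of 3 sum to 0, so these values cannot show whether same-numbered libraries were handled together. With the replicate number as a block, 150 ovary genes were called (39 higher, 111 lower), 251 in the stigma, and 2 in the ovary minus stigma difference. The causes of these shifts were not tested. Read totals are unknown, so depth limits cannot be set per gene, and 3 pooled samples a group cannot give an exact permutation p below 0.1.
The difference in share of FPKM, combined minus heat, was -0.140 to -0.0097 percentage points for anther-enriched genes, -0.0298 to -0.0011 for sepal-enriched and -0.0122 to -0.0016 for stigma-enriched genes when a library was left out.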
